A study of Mus musculus with 8 samples.

Results

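Lipid-associated macrophages are macrophages that take up and break down lipid in fatty tissue, and 10 genes commonly used to mark them were read out in mouse liver: Trem2, Gpnmb, Spp1, Cd9, Cd63, Cd68, Fabp5, Lpl, Lgals3 and Mmp12. The genes were chosen by symbol, with each Ensembl identifier of the count tables matched to the GRCm38 annotation of GENCODE M21. All 10 were found among the 52636 genes of the tables, and all 10 passed the low-count filter that left 15248 genes for testing. The livers came from 8 male wild-type C57BL/6J mice, 4 given AAV8-TBG-GFP and 4 given AAV8-TBG-AGXT, a virus that carries human AGXT, the liver enzyme that turns glyoxylate into glycine. Both viruses used the TBG promoter, which is active in hepatocytes and not in macrophages, and were injected at 7 weeks of age. From 8 weeks of age all 8 mice ate a diet rich in fat, fructose and cholesterol (the MASH diet, which produces steatohepatitis) for 24 weeks, so no group on standard chow stands beside them here. Each mouse gave 1 library and is named by its animal number. Mice 303, 311, 314 and 315 received AAV8-GFP, and mice 308, 309, 316 and 319 received AAV8-AGXT.

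In a liver under metabolic stress, monocytes enter the tissue and some of them become macrophages that gather around lipid-laden hepatocytes and scars. The lipid receptor Trem2 is needed for much of this programme, which includes lysosomal proteins, enzymes and carriers of fatty acids, and secreted proteins that act on matrix and neighbouring cells. Resident Kupffer cells, the macrophages that normally line the liver sinusoids, carry their own markers, such as Clec4f, Timd4 and Marco. Most of the 10 genes are also active outside macrophages: Spp1 and Cd9 in bile duct cells, Lpl and Fabp5 in fat and muscle, Cd63 in nearly every cell.

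The libraries held 17095433 to 28780140 read pairs counted on genes. The mouse Agxt gene stood at 148 to 180 CPM (counts scaled to library size) in the AAV8-GFP mice and at 201 to 405 CPM in the AAV8-AGXT mice, and its log2 fold change was 0.90 (adjusted p = 0.0489, edgeR quasi-likelihood test). The transgene is the human gene, and how many of its read pairs were counted on mouse Agxt is not known. Mouse 308 stood apart, with 56.3% of its tallied read pairs on genes against 62.4% to 69.1% in the other 7, and the highest Agxt level, 405 CPM. The log2 fold changes of the members are also given without this mouse.

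The promoters of these genes are shown because transcription of the members starts there. RefSeq windows on GRCm38.p6 were at hand for 8 of the 10 genes, in 10 windows, and not for Fabp5 and Lpl. The 250 bases upstream of the RefSeq start are printed 5′ to 3′ on the strand of the gene for the receptor Trem2, the lysosomal marker Cd68, the protease Mmp12 and, as the gene with the clearest drop among those with a window free of exons, Cd63. Capitals mark the letters TGANTCA, the motif of AP-1, a family of factors induced by many activating signals.

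Trem2, chr17:48346151-48346400, plus strand: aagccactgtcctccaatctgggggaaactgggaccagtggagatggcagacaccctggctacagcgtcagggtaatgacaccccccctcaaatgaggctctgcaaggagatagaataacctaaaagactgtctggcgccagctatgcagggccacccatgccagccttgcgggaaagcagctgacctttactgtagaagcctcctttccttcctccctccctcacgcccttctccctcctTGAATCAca
Cd68, chr11:69666171-69666420, minus strand: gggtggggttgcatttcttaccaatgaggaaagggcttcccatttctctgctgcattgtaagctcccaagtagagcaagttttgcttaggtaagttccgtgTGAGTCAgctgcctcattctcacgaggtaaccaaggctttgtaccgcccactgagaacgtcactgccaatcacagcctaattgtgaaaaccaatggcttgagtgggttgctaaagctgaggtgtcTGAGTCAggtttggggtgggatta
Mmp12, chr9:7347124-7347373, plus strand: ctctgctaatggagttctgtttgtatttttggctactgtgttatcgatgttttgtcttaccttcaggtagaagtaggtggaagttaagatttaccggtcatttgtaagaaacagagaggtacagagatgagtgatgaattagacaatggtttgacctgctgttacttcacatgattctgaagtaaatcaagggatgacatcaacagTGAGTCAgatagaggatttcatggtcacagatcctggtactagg
Cd63, chr10:128909095-128909344, plus strand: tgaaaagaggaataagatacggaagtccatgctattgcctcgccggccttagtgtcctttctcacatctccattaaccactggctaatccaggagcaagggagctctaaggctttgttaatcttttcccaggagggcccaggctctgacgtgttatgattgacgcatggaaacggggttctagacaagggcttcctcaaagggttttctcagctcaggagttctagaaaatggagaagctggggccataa

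The Trem2 window ended at the annotated start of the gene. The Mmp12 and Cd63 windows lay in introns of longer transcripts of their genes, before a start further downstream. The window at the first RefSeq start of Mmp12, which overlaps an exon and holds no AP-1 motif, is not printed. The motif began 9 bases upstream of the start of Trem2, 149 and 24 bases upstream of the start of Cd68, and 44 bases upstream of the second RefSeq start of Mmp12. It was in 3 of the 10 member windows and in 6.75% of 32817 promoter windows of the same length. All 3 are printed above, so the printed windows do not represent the 10. This motif reads the same on both strands, and it was marked after 14 motifs had been searched on both strands.

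Of the other 13 motifs, 9 were in a window of at least 1 member. The PU.1 letters AGGAAGT, named for the factor that specifies macrophages, were in Spp1 and Mmp12 (7.69% of all windows), as were the 8 letters GAGGAAGT that contain them (2.44%), and the still longer AGAGGAAGT was in Mmp12 (0.798%). The M-box TCATGTG, a motif of the MITF and TFE factors, was in Mmp12 (3.25%), and TATAAA was in Spp1 (12.4%). CCAAT was in Cd68, Lgals3, Spp1 and Trem2 (33.8%), GGGCGG in Cd68, Cd9 and Lgals3 (32.7%), the C/EBP letters TTGCNNAA or TTACNNAA in Cd68, Gpnmb, Mmp12 and Spp1 (16.5%), and an NF-kB motif, GGGA and CC with 4 free bases between them, in Lgals3 (17.6%). The lysosomal E-box TCACGTGA (0.786%), the E-box CACGTG that it contains (6.02%), TGACGTCA (1.55%) and an LXR repeat of AGGTCA with 4 free bases between the copies (0.0152%) were in no member window. The Cd63 window held none of the 14. Spp1 and Mmp12 each had a first and a second window. For Mmp12 the PU.1 and C/EBP matches were in the first, which is not printed, and the M-box was in the second. For Spp1 the C/EBP match was in the second, which overlaps an exon, and the others were in the first. These are matches of letters in a short window, and no binding was measured.

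Most of the markers had lower levels in AAV8-AGXT livers. The mean was lower for 9 of the 10, all but Fabp5, and for 8 of them it was at or below 50% of the AAV8-GFP mean. The test across all genes called 2 of them lower, the tetraspanins Cd9 and Cd63, at an adjusted p under 0.05, in a comparison that called 1.9% of all tested genes lower and 2.45% higher. For 5 of the 10, namely Cd9, Cd63, Cd68, Lgals3 and Mmp12, every AAV8-AGXT mouse was below every AAV8-GFP mouse, against 7.63% of all tested genes. The median log2 fold change of the 10 was −1.22 and that of all tested genes was 0.02. An unadjusted p under 0.05 was reached by 8 of the 10, all lower, against 12.6% of all tested genes lower at that level. In bulk liver RNA, fewer macrophages of a type and less RNA of these genes per macrophage cannot be told apart.

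**Figure D1:**
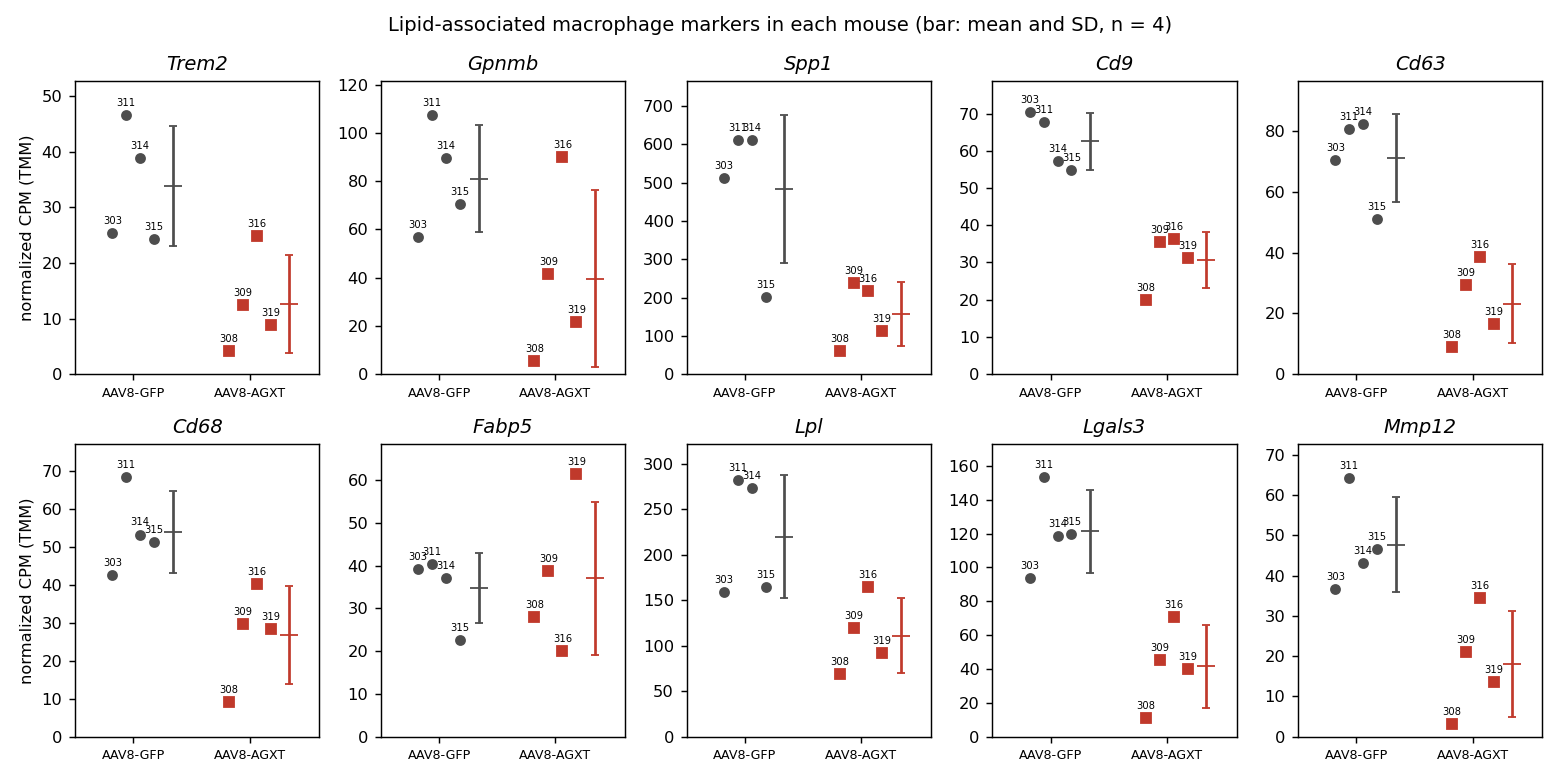
Each panel plots 1 marker in normalized CPM, with 4 AAV8-GFP mice (grey circles) and 4 AAV8-AGXT mice (red squares) labelled by number and the mean with SD beside them. Groups did not overlap in Cd9, Cd63, Cd68, Lgals3 and Mmp12, mouse 308 was lowest in every panel but Fabp5, and mouse 319 was highest in Fabp5, at 61.3 CPM.

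Trem2, the receptor that binds lipids and lipoproteins on the macrophage surface, lies at chr17:48346401-48354147. Its normalized CPM, scaled by TMM, were 25.5, 46.7, 38.8 and 24.4 in AAV8-GFP mice 303, 311, 314 and 315, and 4.21, 12.4, 24.9 and 8.82 in AAV8-AGXT mice 308, 309, 316 and 319. The groups overlapped through mouse 316 alone, which was level with mice 303 and 315, while the other 3 AAV8-AGXT mice were all well below. The means were 33.9 ± 10.8 and 12.6 ± 8.85 CPM (SD, n = 4 each). This gave a log2 fold change of −1.42 ± 0.44 (SE), at an adjusted p of 0.0852 by edgeR's quasi-likelihood test. Over the 8 edgeR fits that each left out 1 mouse, the value ran from −1.98 without mouse 316 (adjusted p = 0.0376) to −1.15 without mouse 308 (adjusted p = 0.119), and the fit without mouse 316 was the 1 of 8 that called Trem2. The TREM2 adaptor Tyrobp (DAP12) stood at 53.4 ± 13.1 and 29.1 ± 13.6 CPM (SD, n = 4 each), the second adaptor Hcst (DAP10) at 1.43 ± 0.34 and 0.76 ± 0.38 CPM, and the kinase Syk downstream of them at 24.9 ± 5.05 and 15.5 ± 5.27 CPM. Of the 8 genes listed for Trem2 signalling and shedding, 6 were tested, all 6 had the lower mean in AAV8-AGXT mice, 1 (Syk) did not overlap between groups, and 0 were called by edgeR, with 3 at an unadjusted p under 0.05. Adam10 and Adam17, the proteases that shed TREM2 from the cell surface, had log2 fold changes of −0.04 and −0.29.

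The lysosomal and late endosomal markers were led by Cd63, a tetraspanin of late endosomes and exosomes (chr10:128900989-128912822). Its CPM were 70.4, 80.7, 82.3 and 51.1 in the AAV8-GFP mice and 8.98, 29.2, 38.4 and 16.3 in the AAV8-AGXT mice, in the order of animal numbers above. The highest AAV8-AGXT mouse was well below the lowest AAV8-GFP mouse, and the mean fell to 32.7% of that of AAV8-GFP. This was −1.61 ± 0.37 (SE) on the log2 scale, with an adjusted p of 0.0455 (edgeR quasi-likelihood test). A transcribed processed copy on another chromosome, Cd63-ps, took part of the read pairs of this family and fell as well (adjusted p = 0.0461, edgeR), with means of 10.9 ± 2.68 and 3.58 ± 1.82 CPM (SD, n = 4 each), so the split of reads between the gene and its copy is uncertain.

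Cd68, a glycoprotein of macrophage lysosomes (chr11:69664213-69666153), was measured at 42.6, 68.4, 53.2 and 51.2 CPM in AAV8-GFP mice and 9.18, 29.6, 40.3 and 28.4 CPM in AAV8-AGXT mice. The groups did not overlap, but mouse 316 came within a few CPM of mouse 303. Its log2 fold change of −1.001 ± 0.35 (SE) had an adjusted p of 0.111 in edgeR.

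Gpnmb, a glycoprotein of lysosomes and the cell surface that is strongly induced in lipid-filled macrophages (chr6:49036546-49070929), was the most uneven of the 9 lower markers. It stood at 56.9, 107, 89.8 and 70.5 CPM in AAV8-GFP mice and at 5.45, 41.3, 90.03 and 21.5 CPM in AAV8-AGXT mice. Mouse 316 matched the AAV8-GFP mice and was above all of them but mouse 311, whereas mouse 308 was 16.5-fold lower than mouse 316. The log2 fold change of −1.03 ± 0.61 (SE) had an adjusted p of 0.313 in edgeR, and it was not called under any processing alternative or left-out mouse. It ran from −0.69 without mouse 308 to −1.83 without mouse 316 (adjusted p = 0.363 and 0.0858, edgeR).

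Cd9, a tetraspanin of the plasma membrane that sets lipid-associated macrophages apart in many tissues (chr6:125460266-125494791), changed most evenly. Its CPM were 70.4, 67.6, 57.2 and 54.8 in AAV8-GFP mice and 19.8, 35.5, 36.3 and 31.1 in AAV8-AGXT mice. The groups lay clear of each other and the spread within each was small, with means of 62.5 ± 7.66 and 30.7 ± 7.59 CPM (SD, n = 4 each). On the log2 scale this was −1.03 ± 0.18 (SE), with an adjusted p of 0.0298, the lowest of the 10 in edgeR's quasi-likelihood test. None of 7 other tetraspanins was called by edgeR (1 at an unadjusted p under 0.05), and 6 of them had the lower mean. Among them the leukocyte tetraspanins Cd53 and Cd37 had log2 fold changes of −0.70 and −0.57, Tspan8, found in bile duct cells, −0.99, and the widely expressed Cd81 −0.16.

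The 2 calls depended on which mice were in the fit. With edgeR, the number of members called was 0 without mouse 303, 311, 314 or 319, 1 without mouse 309, 2 without mouse 308, and 3 without mouse 315 or 316. The share of all tested genes called lower was 0.514%, 0%, 0.0255% and 0.0129% without mouse 303, 311, 314 or 319, 1.67% without mouse 309, 0.576% without mouse 308, and 2.11% and 1.17% without mouse 315 or 316. Cd9 was called in 4 of these 8 fits and Cd63 in 2. Without mouse 308, the lowest in both genes, Cd63 had a log2 fold change of −1.36 with an adjusted p of 0.0547, and Cd9 and Lgals3 were the 2 called. Without that mouse the number of members lower with no overlap was still 5, against 9.77% of all tested genes. The remaining log2 fold changes without it were −1.37 for Spp1, −1.24 for Lgals3, −1.15 for Trem2, −1.07 for Mmp12, −0.88 for Cd9, −0.82 for Lpl, −0.73 for Cd68 and −0.69 for Gpnmb, each smaller than with it.

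**Figure D2:**
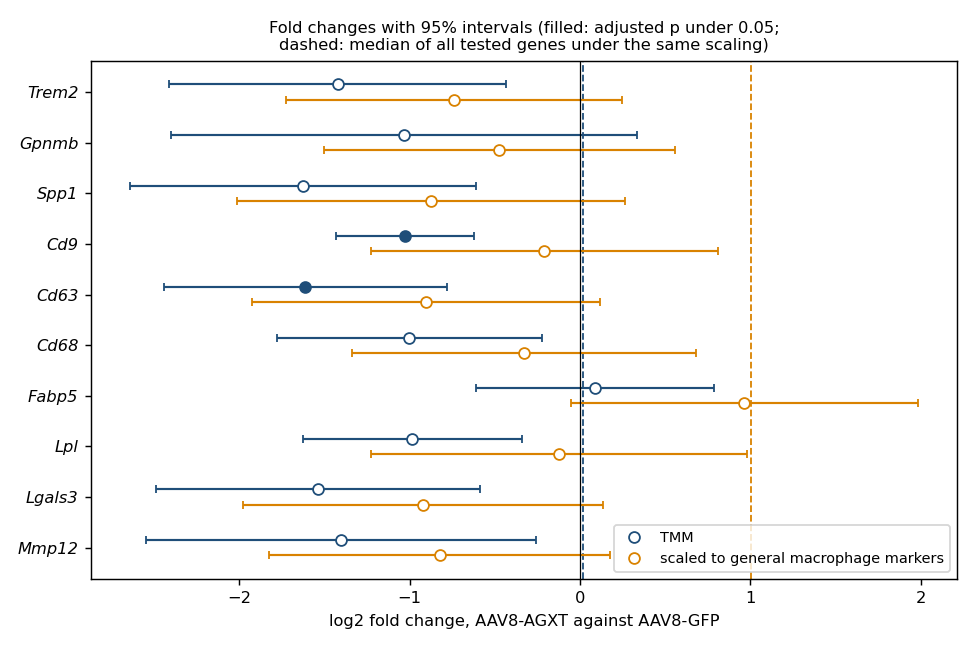
Log2 fold changes of the 10 markers with 95% intervals, from the TMM fit (blue) and from the fit scaled to general macrophage markers (orange), with dashed lines at the median of all tested genes in each fit. Filled points are Cd9 and Cd63, at an adjusted p under 0.05, and the medians of all genes lie at 0.02 and 1.005.

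Of the lipid-handling members, Lpl, the lipase that frees fatty acids from circulating triglyceride (chr8:68880491-68907448), stood at 159, 282, 274 and 164 CPM in AAV8-GFP mice and at 68.6, 120, 165 and 92.3 CPM in AAV8-AGXT mice. Mouse 316 was just above mice 303 and 315, and the other 3 AAV8-AGXT mice were lower than all AAV8-GFP mice. Lpl had a log2 fold change of −0.98 ± 0.29 (SE) and an adjusted p of 0.0756 in edgeR. Adipocyte markers other than Cfd were at or near 0. No mouse had more than 0.0944 CPM of Adipoq, 0.39 CPM of Plin1 or 0.142 CPM of Retn, and Lep had 0 counts in all 8. Cfd, of the same list, stood at 18.1 to 72.6 CPM in AAV8-GFP mice and at 74.0 to 204 CPM in AAV8-AGXT mice. It rose by a log2 fold change of 1.93 (adjusted p = 0.0487, edgeR). Which cells the Lpl and Cfd RNA came from was not tested.

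Partners of lipoprotein lipase had other values. All 7 listed partners and related lipases had the higher mean in AAV8-AGXT mice, and edgeR called 2 of them higher. Apoa5, a hepatocyte protein that promotes lipoprotein lipase activity, rose by 0.63 on the log2 scale, with means of 707 ± 45.7 and 1092 ± 83.4 CPM (SD, n = 4 each) and an adjusted p of 0.0344 in edgeR. Lipg, endothelial lipase, also rose, with means of 6.30 ± 3.22 and 17.6 ± 5.22 CPM (SD, n = 4 each) and an adjusted p of 0.0498 in edgeR. Angptl4, an inhibitor of the lipase, had a log2 fold change of 0.25 and Gpihbp1, its anchor on capillaries, one of 0.16, neither called.

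Fabp5, a cytosolic fatty acid carrier (chr3:10012548-10016607), was the exception among the 10. It stood at 39.1, 40.4, 37.2 and 22.7 CPM in AAV8-GFP mice and at 27.9, 38.8, 20.1 and 61.3 CPM in AAV8-AGXT mice. The groups overlapped fully, the highest and the lowest value both came from AAV8-AGXT mice, and mouse 316, the highest AAV8-AGXT mouse in 8 other members, was the lowest of all. Its log2 fold change was 0.09, with a 95% interval of −0.61 to 0.79 and an adjusted p of 0.886 in edgeR. The interval leaves out a drop as large as the estimate for Trem2, but not a rise of up to 0.79. Its sign turned with mouse 319, to −0.27 without it, and with mouse 315, to −0.07 without it. Among other carriers of the family, the macrophage and adipocyte form Fabp4 stood at 143 ± 81.1 and 97.2 ± 52.2 CPM and the hepatocyte form Fabp1 at 5081 ± 772 and 7313 ± 2608 CPM (SD, n = 4 each). None of the 4 was called by edgeR (1 at an unadjusted p under 0.05).

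Of the secreted members, Spp1 (osteopontin, a matrix protein that recruits and activates cells in scars, chr5:104435118-104441050) was the most abundant. It stood at 513, 611, 611 and 201 CPM in AAV8-GFP mice and at 60.3, 239, 216 and 113 CPM in AAV8-AGXT mice. Mouse 315 was far below the other 3 AAV8-GFP mice and below mice 309 and 316, and the groups overlapped through it. Its log2 fold change, −1.62 ± 0.46 (SE), was the lowest of the 10, with an adjusted p of 0.0704 in edgeR. With 1 mouse left out it ran from −1.91 to −1.37, the latter without mouse 308, and Spp1 was called in 1 of 8 such edgeR fits, the one without mouse 315 (−1.88, adjusted p = 0.0448).

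Bile duct cells also make osteopontin, and their markers had lower levels beside Spp1. The summed CPM of the bile duct list (Krt19, Krt7, Epcam, Sox9 and Cldn4, the 5 tested) ranged from 25.1 to 67.1 in AAV8-GFP mice and from 14.3 to 34.8 in AAV8-AGXT mice. The median of the 5 was −1.34 on the log2 scale. Mouse 315 was again the lowest AAV8-GFP mouse, with 6.97 CPM of Epcam against 19.6 to 25.3 in the other 3. None of the 5 was called by edgeR, all 5 had an unadjusted p under 0.05, and their part in the Spp1 result was not tested. Among the receptors of osteopontin, Cd44 stood at 27.5 ± 6.64 and 16.2 ± 7.36 CPM (SD, n = 4 each), and the groups overlapped. Of 7 receptor genes, 0 were called by edgeR, with 1 lower and 1 higher at an unadjusted p under 0.05. The lower was Itgb5, with a log2 fold change of −0.40, and the higher was Itgb3, with 0.78, both with no overlap.

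Lgals3, galectin-3, a secreted sugar-binding protein of activated macrophages (chr14:47367751-47386160), stood at 93.8, 153, 119 and 120 CPM in AAV8-GFP mice and at 10.8, 45.1, 70.7 and 40.3 CPM in AAV8-AGXT mice. The groups did not overlap. Lgals3 had a log2 fold change of −1.54 ± 0.43 (SE), with an adjusted p of 0.0697 in edgeR. Lgals1, galectin-1, which is made by macrophages and by scar-forming cells, fell, with means of 130 ± 9.52 and 63.2 ± 14.9 CPM (SD, n = 4 each) and an adjusted p of 0.0248 in edgeR. It was the only one called of the 5 genes listed beside Lgals3, which were galectins and the galectin-3-binding protein Lgals3bp. The galectins Lgals8 and Lgals9 had log2 fold changes of 0.39 and 0.15.

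Mmp12, macrophage elastase (chr9:7344381-7369499), stood at 36.7, 64.2, 43.1 and 46.7 CPM in AAV8-GFP mice and at 3.11, 20.9, 34.4 and 13.6 CPM in AAV8-AGXT mice. The groups did not overlap, with mouse 316 just under mouse 303, and mouse 308 had 45 counts, the fewest of any member in any mouse. Mmp12 had a log2 fold change of −1.40 ± 0.51 (SE), with an adjusted p of 0.124 in edgeR. Mmp13, a collagenase made by liver macrophages and stellate cells, stood at 4.35 ± 0.57 and 1.49 ± 0.99 CPM (SD, n = 4 each) with no overlap, at an adjusted p of 0.0659, while Mmp19 was higher in every AAV8-AGXT mouse, at 21.5 ± 4.85 and 31.9 ± 5.23 CPM, at an adjusted p of 0.0833 (edgeR, neither called).

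Set per length of the principal transcript, in CPM per kilobase, the order in AAV8-GFP mice was led by Spp1 at 321 ± 129, Lgals3 at 85.5 ± 17.2 and Cd63 at 64.1 ± 13.0 (SD, n = 4). Lpl at 53.5 ± 16.3, Cd9 at 50.9 ± 6.23, Cd68 at 43.8 ± 8.73, Fabp5 at 35.3 ± 8.30 and Trem2 at 31.1 ± 9.93 followed, each within the spread of its neighbour, ahead of Gpnmb at 21.9 ± 5.97 and Mmp12 at 13.2 ± 3.27. In AAV8-AGXT mice Spp1 at 104 ± 56.3 was again first and Mmp12 at 4.99 ± 3.64 last, but Fabp5, at 37.5 ± 18.1, moved from place 7 to place 2 and Cd63, at 20.9 ± 11.8, from place 3 to place 7. The order depends on the length used. Per length of all annotated exons, Cd68 was at place 3 in AAV8-GFP mice, Fabp5 was at place 8 in AAV8-GFP mice and 6 in AAV8-AGXT mice, and Cd63 at 6 and 7, so both moves were smaller.

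The members other than Fabp5 varied together from mouse to mouse. Mouse 311 was the highest of the 8 in 7 members, and mouse 308 was the lowest in 9, all but Fabp5. Mouse 316 was the highest AAV8-AGXT mouse in 8 members, and mouse 319 was the next to lowest of the 8 in the same 9 members in which mouse 308 was last. Over the 8 mice, which include both groups, the Pearson correlation of log2 CPM with Trem2 was 0.98 for Lpl, 0.97 for Cd63 and Lgals3, 0.96 for Mmp12 and Gpnmb, 0.95 for Cd68, 0.92 for Spp1, 0.91 for Cd9 and −0.10 for Fabp5. After the group means were taken out, Gpnmb remained at 0.97 and Lpl and Cd63 at 0.95, Mmp12 stood at 0.93, Lgals3 at 0.92 and Cd68 at 0.91, and Spp1 and Cd9 at 0.81 and 0.79. Over the 7 mice without mouse 308, the lowest in all but Fabp5, the correlation with Trem2 was 0.97 for Lpl, 0.96 for Mmp12, 0.95 for Cd68 and Cd63, 0.94 for Gpnmb and Lgals3, 0.84 for Spp1, 0.81 for Cd9 and −0.39 for Fabp5. Depth and the share of macrophage RNA are common to all these points.

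Among all other tested genes, the 5 whose levels followed Trem2 most closely over the 8 mice were Fmnl1 (r = 0.99), a formin of leukocytes, Tnfrsf13b (r = 0.99), a receptor of the TNF family, Ms4a7 (r = 0.99), a membrane protein of macrophages, Hpgds (r = 0.99), a prostaglandin D synthase, and Nt5c3b (r = 0.99), a nucleotidase. Of these, Ms4a7 had the lowest log2 fold change and was not called, at 10.5 ± 2.90 and 3.32 ± 2.18 CPM (SD, n = 4 each), with an adjusted p of 0.0666 in edgeR. In the same ranking Lpl was at place 12, Cd63 at 27, Lgals3 at 58, Mmp12 at 74, Gpnmb at 86 and Cd68 at 129. Spp1 was at place 390, Cd9 at 497 and Fabp5 at 7879 of the tested genes.

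A further list of 22 genes linked to lipid-associated macrophages, none of them among the 10, had a median log2 fold change of −0.61. Their mean was lower in AAV8-AGXT mice for 17. By edgeR 2 were called lower and 0 higher, against 1.9% and 2.45% of all tested genes. Of the 22, 8 were lower with no overlap, against 7.63% of all tested genes, and 1 was higher with no overlap. The 2 called were Lgals1 and Cstb, a cystatin that inhibits cathepsins, which fell too, at 75.0 ± 5.12 and 51.9 ± 8.93 CPM (SD, n = 4 each; adjusted p = 0.0489, edgeR). Lower with no overlap but not called were the integrin Itgax (CD11c), with a log2 fold change of −1.31, the actin-capping protein Capg, with −1.12, the chemokine Ccl3, with −1.51, Ms4a7, with −1.65, Vat1, with −0.54, and the lysosomal protease Ctsd, with −0.32.

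The 5 genes of this list with the higher mean in AAV8-AGXT mice included several that hepatocytes express at high level. The lipid droplet coat Plin2 stood at 1438 ± 238 and 1723 ± 437 CPM, the fatty acid receptor Cd36 at 163 ± 22.5 and 200 ± 38.8 CPM, and lysosomal acid lipase, Lipa, at 266 ± 26.9 and 308 ± 18.3 CPM (SD, n = 4 each), none of them called. Of the regulators listed, Spi1, which encodes PU.1, stood at 29.3 ± 6.11 and 15.2 ± 7.39 CPM with no overlap, Mitf at 5.62 ± 0.25 and 4.93 ± 1.32 CPM and Tfe3 at 42.6 ± 4.30 and 44.8 ± 2.66 CPM. None of the 10 regulators was called by edgeR (4 at an unadjusted p under 0.05).

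**Figure D3:**
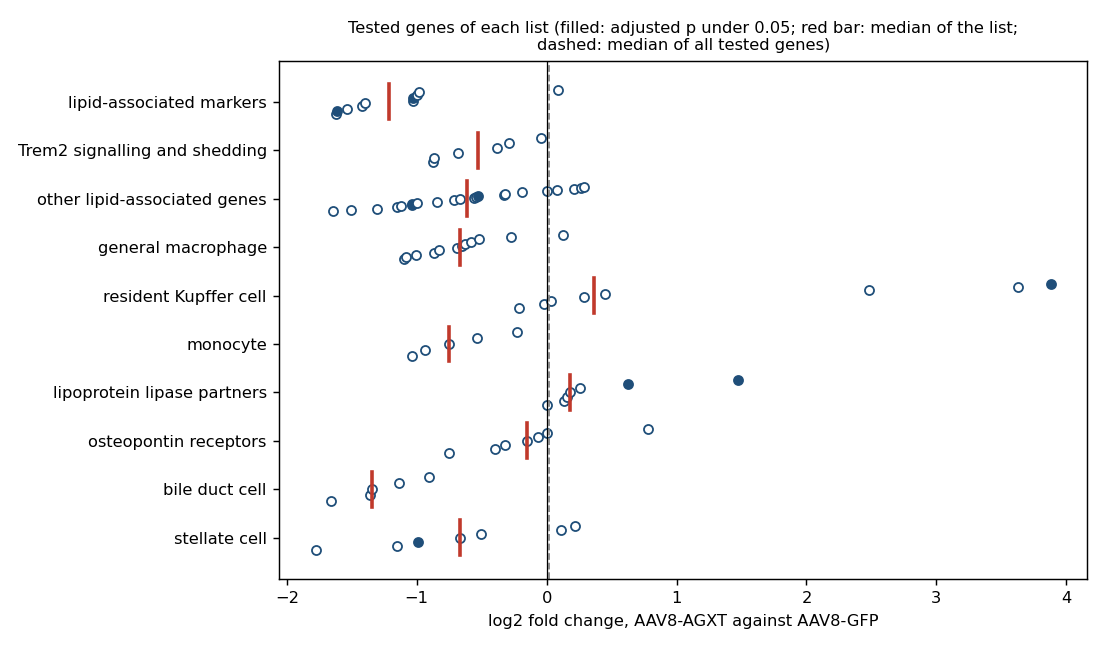
Each point is the log2 fold change of 1 tested gene, in rows by list, with filled points at an adjusted p under 0.05, red bars at the list median and a dashed line at the median of all tested genes. The lipid-associated markers have a median of −1.22, the bile duct list −1.34, the general macrophage list −0.67 and the resident Kupffer cell list 0.37.

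General macrophage markers also had lower levels. Of 12 (Adgre1, Csf1r, Mpeg1, Lyz2, Fcgr1, Cd14, C1qa, C1qb, C1qc, Ptprc, Itgam and Cx3cr1), 11 had the lower mean in AAV8-AGXT mice, 4 had an unadjusted p under 0.05, 3 did not overlap and 0 were called by edgeR. Their summed level was 912 to 1484 CPM in AAV8-GFP mice and 295 to 1026 CPM in AAV8-AGXT mice. The mean log2 CPM of the list was 5.65 ± 0.27 and 4.84 ± 0.81 (SD, n = 4 each), a difference of −0.82 (p = 0.0571, two-sided exact permutation test, for which 0.0286 is the smallest p possible). Without mouse 308 the difference was −0.43, and without mouse 319 it was −1.01. The pan-macrophage receptor gene Csf1r stood at 97.1 ± 13.9 and 80.3 ± 37.1 CPM and Adgre1, which encodes F4/80, at 13.8 ± 4.18 and 15.02 ± 7.98 CPM (SD, n = 4 each), with mouse 319 the highest of all 8 in both.

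Markers of resident Kupffer cells had higher means in 6 of 8 cases. Cd163, a scavenger receptor of resident macrophages, rose by 3.88 on the log2 scale, with means of 1.10 ± 0.40 and 16.2 ± 12.6 CPM (SD, n = 4 each) and an adjusted p of 0.0236 in edgeR, and it was the only one of 8 called. In mouse 319 Marco stood at 156 CPM, Timd4 at 13.6 CPM and Clec4f at 215 CPM, each the highest of the 8 mice, while Trem2 was at 8.82 CPM and Spp1 at 113 CPM in the same liver. Clec4f stood at 93.0 ± 26.6 and 127 ± 58.6 CPM, and Vsig4 at 28.2 ± 5.29 and 28.9 ± 13.8 CPM (SD, n = 4 each). The list had a median log2 fold change of 0.37. Whether the members and the Kupffer cell markers differed in their response was not tested.

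**Figure D4:**
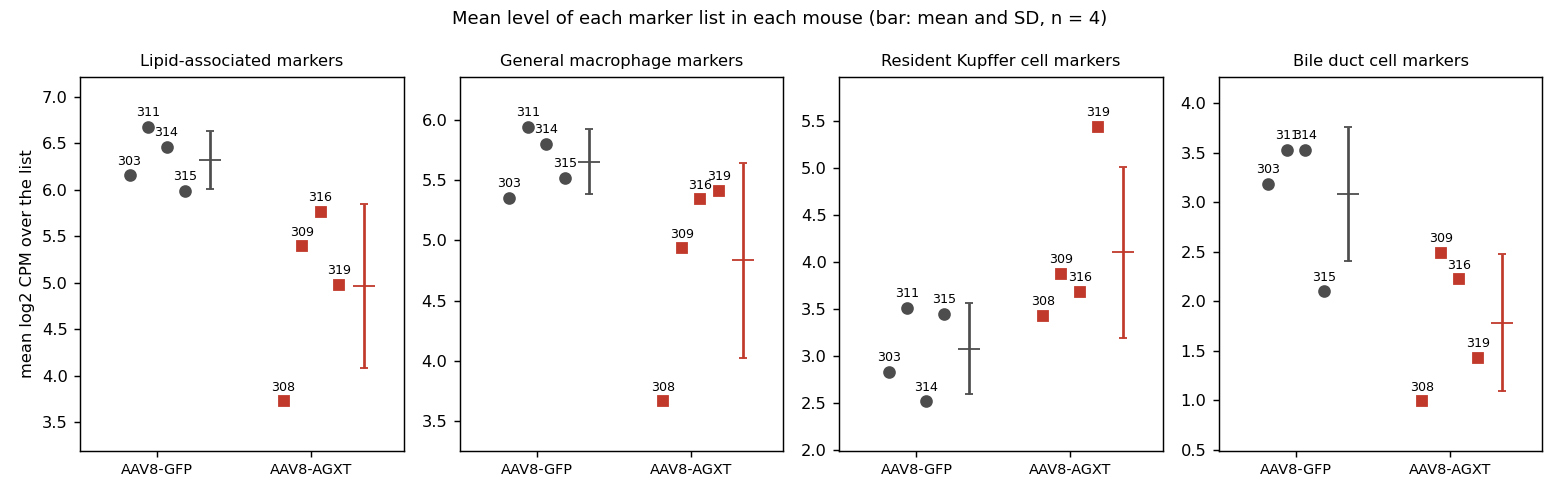
Mean log2 CPM of 4 marker lists in each mouse, labelled by number, with the group mean and SD. Mouse 308 is lowest in the lipid-associated, general macrophage and bile duct lists, and mouse 319 is low in the lipid-associated markers, at 4.98, but highest in the Kupffer cell markers, at 5.44.

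To set the members against macrophage content, each mouse was also scaled to its general macrophage markers in place of TMM. This scaling moved the median log2 fold change of all tested genes to 1.005, so a gene that followed the bulk of the liver would stand there and a gene that followed the macrophage markers would stand near 0. The members lay at −0.92 for Lgals3, −0.90 for Cd63, −0.87 for Spp1, −0.82 for Mmp12, −0.74 for Trem2, −0.47 for Gpnmb, −0.33 for Cd68, −0.21 for Cd9, −0.12 for Lpl and 0.97 for Fabp5. Cd63 and Lgals3 stayed below AAV8-GFP in every AAV8-AGXT mouse, against 0.61% of all tested genes. That share was 7.63% in the TMM fit. It is low here because the scaling moved most genes up, so it does not measure a drop beyond macrophage content. None of the 10 was called by edgeR in this fit, which called 0.111% of all tested genes lower. Of the 10, 0 had an unadjusted p under 0.05, and every one of the 10 intervals included 0. The SE was 0.52 for both Cd9 and Cd63, against 0.18 and 0.37 in the TMM fit. It was smaller than in the TMM fit for Gpnmb and Mmp12 alone.

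Relative to the general macrophage markers of the same mouse, Trem2 was at 51.3%, 62.5%, 94.0% and 31.9% of the AAV8-GFP mean in mice 308, 309, 316 and 319. For Cd63 these were 50.7%, 68.1%, 67.5% and 27.4%, and for Lgals3 36.2%, 62.1%, 73.3% and 39.9%. Mouse 319, whose macrophage markers were near the AAV8-GFP level, was the lowest for Trem2 and Cd63 on this scale. It was also the highest of all mice in the Kupffer cell list, at a mean log2 CPM of 5.44. In Adgre1 (25.4 CPM) and Csf1r (126 CPM), which are in the list used for scaling, it was the highest too. The part of Kupffer cells in its ratios was not tested. Mouse 308, lowest in almost every member by CPM, was at 125% for Cd9 and 128% for Lpl once set against its macrophage markers, and at 319% for Fabp5. For Gpnmb mouse 316 was at 141% and mouse 308 at 27.6%.

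**Figure D5:**
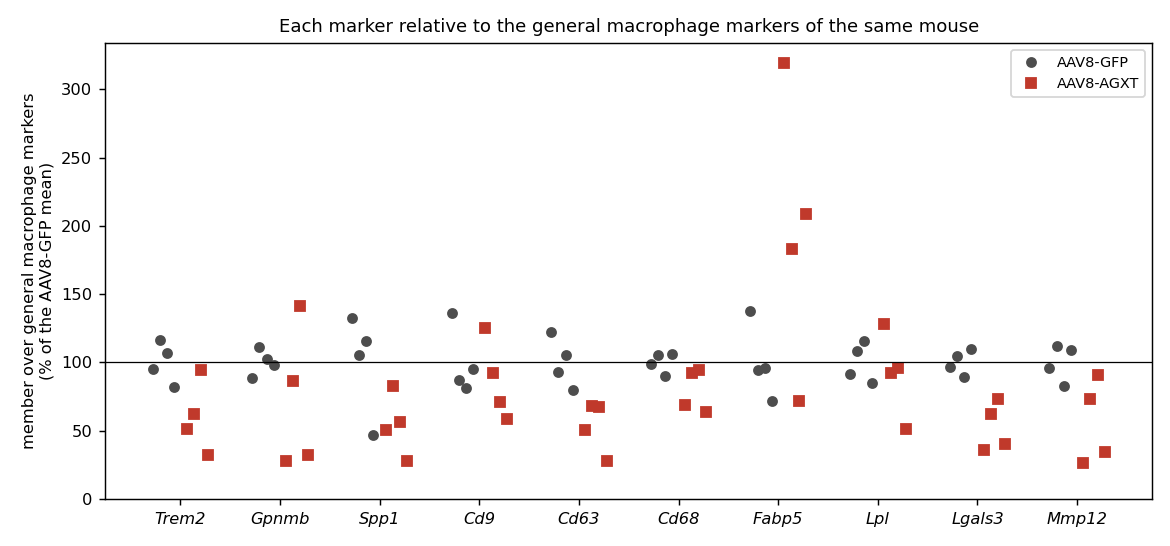
Each marker relative to the general macrophage markers of the same mouse, in percent of the AAV8-GFP mean (line at 100), for 4 AAV8-GFP mice (grey circles) and 4 AAV8-AGXT mice (red squares). Cd63 and Lgals3 show no overlap, with AAV8-AGXT mice at 27.4% to 68.1% and at 36.2% to 73.3%, and Fabp5 reaches 319%.

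Markers of other cells were set beside the members as well. All 5 monocyte genes had the lower mean in AAV8-AGXT mice, at a list median of −0.75 on the log2 scale, and 0 were called by edgeR (1 at an unadjusted p under 0.05), and their summed level was 34 to 51.3 CPM against 10.6 to 32.0 CPM. The 7 stellate cell genes had a median of −0.67, with the lower mean for 5, of which 3 did not overlap, and the higher mean for Lrat (0.11) and Reln (0.22). Among them Acta2, the smooth muscle actin of scar-forming cells, fell, at 8.31 ± 2.51 and 4.17 ± 0.35 CPM (SD, n = 4 each; adjusted p = 0.0427, edgeR), and Col1a1 stood at 143 ± 48.0 and 41.7 ± 28.6 CPM with no overlap and was not called. The 7 hepatocyte genes all had the higher mean, with a median log2 fold change of 0.52 and 1 called higher. Of the other immune lists, 5 of 6 lymphocyte genes (median −0.84, 2 lower with no overlap), all 3 tested neutrophil genes (median −0.79) and all 5 dendritic cell genes (median −0.41) had the lower mean, whereas all 6 endothelial genes had the higher mean (median 0.28). None of these was called by edgeR, with 2 lymphocyte, 0 neutrophil, 1 dendritic and 0 endothelial genes at an unadjusted p under 0.05. The part of these cell types in the levels of the members was not tested.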

How the data were processed

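Liver RNA of 8 mice, 4 per treatment named in the sample labels, went into stranded paired-end mRNA libraries, 1 per mouse. The authors trimmed reads with Trimmomatic 0.35, mapped them to GRCm38 with HISAT2 2.1.0.13 and counted them on genes with HTSeq. Their own test for differentially expressed genes was that of DESeq2, which is an alternative here. The deposited values are raw counts per gene, and the strand option of the counting is not stated. Pairs that HTSeq assigned to no gene, 30.9% to 43.7% of each table, were left out.

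Symbols came from GENCODE M21, which matched 52489 of 52636 identifiers. In R 4.3.3, edgeR 4.0.16 (filterByExpr, TMM, quasi-likelihood fit and test, treatment only, Benjamini-Hochberg over 15248 genes) was the main test, with limma 3.58.1 and DESeq2 1.42.0 as alternatives, as were other scalings and filters and each mouse left out. Genes at an adjusted p under 0.05 are named as called. The script was tested on simulated data. Log2 fold changes used a prior count of 0.125 and log2 CPM one of 2. The common biological coefficient of variation was 23.3%, so the spread between mice sets the precision. P-values set the difference between the groups against the spread between mice within them, for these 8 mice only.

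The 10 members and all gene lists were chosen with earlier results of these data known. Named genes were the 10 members, list genes called or nearest to a member in function, and the 5 genes with the highest Pearson correlation with Trem2. Exons of Cd9, Spp1 and Mmp12 overlap another gene with 10, 42 and 0 counts in all mice, and copies of Cd9 and Fabp5 had 1 and 5 counts. Promoter sequences are those of RefSeq.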

Additional observations from a re-analysis of the deposited data

How the results depend on the processing

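The number of members called by edgeR was 2 and became 7 with the DESeq2 Wald test (all but Gpnmb, Fabp5 and Mmp12), where 6.37% of all genes with an adjusted p were called lower, against 1.9% in edgeR. It was 6 with no low-count filter (1.52% of all genes lower), 6 at an adjusted p under 0.10 (6.24%), 1 with robust dispersion (1.91%) and 0 when scaled to general macrophage markers (0.111%). It was 2 with limma-voom (1.82% of genes lower), DESeq2 size factors (1.8%), total counts (5.62%) or at least 10 counts in every mouse (1.69%). With 1 mouse left out it was 0 to 3, where 0% to 2.11% of all genes were called lower. The members lower with no overlap were 5 (7.63% of all genes), 7 with total counts (17.6%), 2 with the macrophage scaling (0.61%) and 5 to 8 with 1 mouse left out (8.67% to 12.7%), 8 without mouse 316 (10.6%). Fabp5 turned from 0.09 to −0.17 with total counts, to −0.07 without mouse 315 and to −0.27 without mouse 319, and reached 0.30 without mouse 316. The difference in general macrophage markers ran from −1.01 to −0.43 with 1 mouse left out. The other 9 members kept a lower mean in all 16 alternatives. Total counts moved the median of all tested genes to −0.22. The cause of these shifts was not tested. No paired analysis was possible because the animal numbers are not shared between groups.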
